A study of Mus musculus with 8 samples.

Results

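The 42 genes described here encode the transport machinery and the gate of the primary cilium, and they were taken by name. They comprise 10 genes of the intraflagellar transport complex B (IFT-B), 6 of complex A (IFT-A), 8 of the BBSome and the chaperonins that assemble it, 5 motor genes, 3 ARF-like GTPases and 10 genes of the transition zone and basal body. All 42 were found among the 46603 rows of the count table, and 41 of them were among the 13605 genes with enough reads to be tested. The remaining gene, Nphp4, had too few reads in both cell populations.

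The primary cilium is a single antenna of microtubules that most epithelial cells carry, and in the bile duct it projects from cholangiocytes into the lumen, where it senses flow, osmolality and bile composition. Proteins are carried along it on IFT trains, outward by kinesin-2 and back by cytoplasmic dynein-2, and the transition zone at its base controls which proteins enter. The cilium is taken down before a cell divides and rebuilt afterwards, and inherited defects of many of these genes cause cysts of the bile ducts or fibrosis of the liver.

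Liver label-retaining cells (LLRCs) were compared with non-LRC biliary cells from the same livers. All mice carried 1 copy each of R26rtTA, a doxycycline-dependent activator at the broadly active Rosa26 locus, and of H2B-EGFP, a fluorescent histone that is diluted as cells divide. Doxycycline was given from birth to postnatal day 5, and cells were sorted at 8 weeks of age. EGFP-positive cells (LLRCs) had kept the label, and EGFP-negative cells (non-LRC) had lost it or never carried it. In the study a part of the biliary cells was without label at postnatal day 5. According to the study's methods both populations were EpCAM-positive and CD45-negative, and this EGFP histone is also made by blood cells without doxycycline. Each of the 4 mice, JV602, JV621, JV624 and JV6314, gave 1 LLRC and 1 non-LRC library, and there was no group without doxycycline.

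The 8 libraries held between 4670132 and 9851819 counts, with 7860021 or more in LLRCs. A count of 3 corresponded to between 0.291 and 0.626 CPM, where CPM is counts scaled to a common library size by the TMM method. The non-LRC library of JV621 stood apart, with 14234 genes detected against 16042 to 20430 in the other libraries. The non-LRC library of JV6314 held 894.6 CPM of summed acinar markers, against at most 21.8 CPM in the other 7 libraries. Xist, the transcript of the inactive X chromosome, was read in 1 library, the LLRC library of JV621 (120 counts), and had 0 counts in the non-LRC library labelled with the same mouse, although Y-linked transcripts were read in all 8. The differences within JV621 thus rest on the labels, and results are also given without this mouse; the cause was not tested. Of 10 cholangiocyte markers, each was read in both groups, with a summed level of 113438 to 220446 CPM in LLRCs and 65591 to 160687 CPM in non-LRC cells, nearly all of it Spp1. Summed endothelial markers were at 26.3 to 53.6 CPM in LLRCs and 168.7 to 575 CPM in non-LRC cells, and summed stellate or fibroblast markers at 82.7 to 575 CPM and 537 to 2550 CPM. Summed hepatocyte markers were at 2776 to 3297 CPM in LLRCs and at 2171 to 6242 CPM in non-LRC cells, with the highest values in JV624 (6242 CPM) and JV6314 (5783 CPM). Alb made up most of the LLRC sums, at 2091 to 2542 CPM, and was at 1506 to 2786 CPM in non-LRC cells. The log2 fold changes (LLRC over non-LRC) of the 10 hepatocyte markers ran from -2.69 for Cyp2e1 to 0.74 for Apob, most of them below 0. Summed hematopoietic markers were at 12.1 to 30.7 CPM and 16.1 to 31.3 CPM, with Ptprc, which encodes CD45, at 0.485 to 6.55 CPM in LLRCs and 0 to 1.38 CPM in non-LRC cells. The part of these other cell types in the cilium values was not tested. In such sorted pools, fewer cells of a type and less RNA per cell cannot be told apart.

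The 42 genes were read at very different levels. Per kilobase of exon, with the mean over the 8 libraries, the highest was Dync2li1, the light intermediate chain of the dynein that carries cargo back to the cell body, at 43.2 CPM per kb. It was followed by Ift74 at 40.9, Arl6 at 29.6 and Ift57 at 23.4 CPM per kb. The lowest were Cep164 at 0.567, Tctn1 at 0.431, Bbs1 at 0.289 and Nphp4 at 0.138 CPM per kb. These spans were wider than the spread between libraries for distant genes but not for neighbours: in LLRCs Dync2li1 was at 48.1 ± 6.96 CPM per kb (SD, n = 4) and Ift74 at 45.7 ± 12.5, while Cep164 was at 0.723 ± 0.195 CPM per kb. By role, the median level in LLRCs was 11.2 CPM per kb for the motors, 8.43 for the GTPases, 5.87 for IFT-B, 3.01 for the BBSome and its chaperonins, 1.89 for IFT-A and 0.766 for the transition zone and basal body. The transition zone and basal body class thus had the lowest median, but single genes crossed this order. With the mean over the 8 libraries, Ofd1 at 5.68 and Tmem67 at 3.73 CPM per kb, both of that class, lay above Ift88 at 3.31 and Dync2h1 at 1.73 CPM per kb. Some genes of motile cilia were read as well. Of 10 markers of multiciliated cells 9 had a row in the count table. Mcidas had 0 counts in all 4 LLRC libraries and Hydin in all 4 non-LRC libraries. The summed level of the 9 markers was 15.9 to 35.0 CPM in LLRCs and 4.74 to 36.1 CPM in non-LRC cells. Per length, their median level in LLRCs was 0.172 CPM per kb, against 3.81 CPM per kb for the 42 primary cilium genes. The highest were Rsph1, a radial spoke protein, at 3.35 ± 2.26 CPM per kb (SD, n = 4), Tekt1 at 1.39 ± 0.643 and Dnah5, a long dynein heavy chain, at 0.967 ± 0.490 CPM per kb. Foxj1, the regulator of motile cilia, was at or below 0.666 CPM in every library. Summed over the larger number of 42, the primary cilium genes stood at 1012 to 1215 CPM in LLRCs and 826 to 1177 CPM in non-LRC cells.

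**Figure D1:**
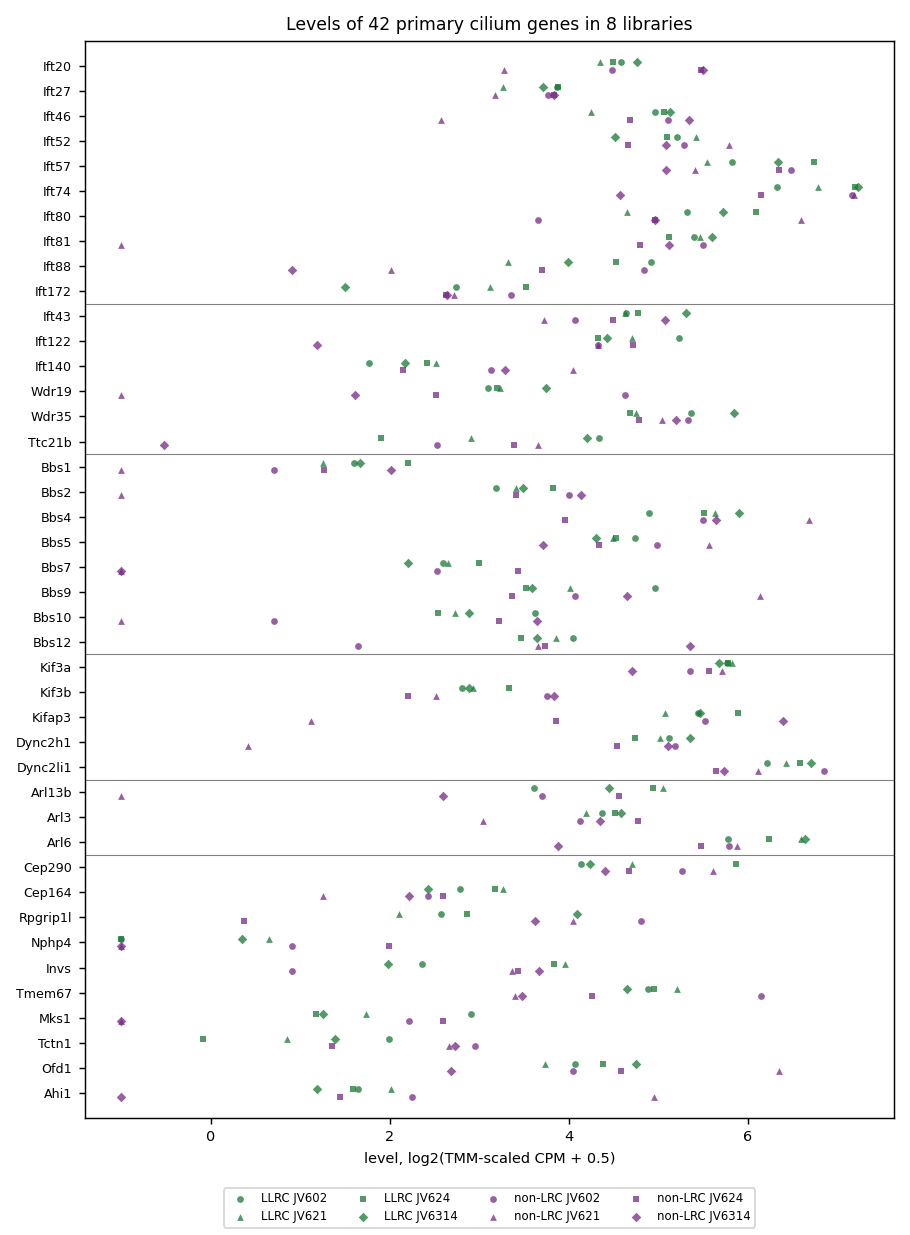
Level of each of the 42 genes in the 8 libraries, on a scale of log2(TMM-scaled CPM + 0.5), with genes grouped by role between the grey lines in the order IFT-B, IFT-A, BBSome and chaperonins, motors, GTPases, and transition zone and basal body. Green points are LLRC libraries, purple points non-LRC libraries, and the marker shape gives the mouse; the points at the left edge have 0 counts, and where both the non-LRC libraries of JV621 and JV6314 have 0 their points overlie each other.

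Cilium genes are known targets of the regulatory factor X (RFX) proteins, which bind a paired element called the X-box. The promoters of 37 of the 42 genes, taken from RefSeq on GRCm38.p6 as 250 bases before to 50 after the start of transcription, were searched on both strands with spellings chosen after matches had been seen. For the paired element, forms with 1, 2 and 3 letters between GTNNCC and GGNNAC were searched. The half-site GTTGCC was present in 17 of 37 promoters (45.9%), against 14.9% of the promoters of genes tested, and it can lie inside the paired forms. The form with 2 letters, GTNNCCNNGGNNAC, was present in 9 of 37 (24.3%), against 2.82%, and its stricter form GTTNCCNNGGNAAC, which is contained in it, in 4 of 37 (10.8%), against 0.692%. The form with 1 letter, GTNNCCNGGNNAC, was present in 1 of 37 (2.70%, Ift57), against 1.31%, and the form with 3 letters, GTNNCCNNNGGNNAC, in 0 of 37, against 1.05%. Their stricter forms GTTNCCNGGNAAC and GTTNCCNNNGGNAAC were present in 1 (Ift57) and 0 of 37, against 0.238% and 0.130%. CCAAT, a common promoter element, was present in 25 of 37 (67.6%), against 43.4%. A match is a description of the letters and not of binding, and the 5 genes without a promoter sequence were Ift80, Ift81, Ift122, Dync2li1 and Tmem67. Of the 60 other cilium genes 54 had a promoter, and 37.0% of these held the half-site, 20.4% the paired form with 2 letters, 5.56% its stricter form and 55.6% CCAAT. The forms with 1 and 3 letters were in 1.85% and 3.70% of them. The half-site and CCAAT occur in members of all 6 role classes, and the paired form with 2 letters in 4 of them. The 9 matches of that form are shown, since the forms with 1 and 3 letters matched 1 and 0 promoters. Each is read 5′ to 3′ on the strand of its gene, with the match in capitals.
Ift57 (chr16:49699199-49699228, plus strand): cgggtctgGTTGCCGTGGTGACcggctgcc
Wdr19 (chr5:65199654-65199683, plus strand): tttgcacgGTCTCCTGGGTGACgagaacgc
Bbs1 (chr19:4906605-4906634, minus strand): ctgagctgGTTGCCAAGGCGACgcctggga
Bbs4 (chr9:59353464-59353493, minus strand): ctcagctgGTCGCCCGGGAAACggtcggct
Bbs7 (chr3:36613489-36613518, minus strand): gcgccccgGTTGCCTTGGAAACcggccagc
Nphp4 (chr4:152477903-152477932, plus strand): cggtgcccGTCTCCTAGGTAACgcgccagc
Mks1 (chr11:87853183-87853212, plus strand): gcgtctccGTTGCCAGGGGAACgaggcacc
Tctn1 (chr5:122264411-122264432, minus strand): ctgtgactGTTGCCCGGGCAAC
Ahi1 (chr10:20952560-20952589, plus strand): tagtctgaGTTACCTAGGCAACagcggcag
The matches of Ift57, Wdr19, Bbs7, Nphp4 and Mks1 begin 87, 34, 121, 231 and 24 bases before the start of transcription. Those of Bbs1, Bbs4, Tctn1 and Ahi1 begin at bases 2, 24, 37 and 22 after it. Among the genes whose level was higher in the LLRC library of every mouse with TMM scaling (described in the following), the half-site alone, or its complement GGCAAC, lies in the promoters of Kif3a, Cep164 and Ift88. Ift43, the remaining gene of this kind, has none in its promoter. The half-site occurs in genes with log2 fold changes of both signs, such as Arl13b (1.22) and Tctn1 (-1.52). A link between half-site and direction was not tested.
Kif3a (chr11:53567259-53567288, plus strand): caccccgcaggcGTTGCCccagtctagcgt
Cep164 (chr9:45828614-45828640, minus strand): tggtcgctgcagGGCAACaccccggcg
Ift88 (chr14:57424080-57424109, plus strand): ggagtcgcgcctGGCAACggctgggcgtcc

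No gene of the ciliary transport machinery or gate passed the test for a difference between LLRCs and non-LRC cells. By the quasi-likelihood test of edgeR, 0 of the 41 passed an adjusted p of 0.05, as did 0 (0.0%) of all 13605 genes. An unadjusted p below 0.05 was reached by 0 of the 41, against 5.16% of all genes, of which 1.6% were higher and 3.56% lower in LLRCs. The smallest adjusted p among the 41 was 0.993 and the smallest unadjusted p was 0.0609, for Ift140. With DESeq2, edgeR's exact test and edgeR's likelihood ratio test, which called 1.62%, 1.17% and 1.26% of all genes, 0 of the 41 passed the adjusted threshold, and the unadjusted p was below 0.05 for 2, 1 and 1 of them (4.88%, 2.44% and 2.44%), against 7.42%, 5.97% and 6.42% of all genes. With limma-voom it was below 0.05 for 2 of the 41, against 6.51%, and without mouse JV621 for 1, against 5.86%. The fitted log2 fold changes, given as LLRC over non-LRC throughout, ran from -1.81 for Ahi1 to 1.22 for Arl13b. They were above 0 for 28 of the 41 genes (68.3%), against 48.9% of all genes, and below 0 for 13, against 51.1%, with a median of 0.15 against -0.01. With the mouse as a replicate block 29 were above 0 (70.7%, against 60.5% of all genes), with a median of 0.42 against 0.14 for all genes. With limma-voom 28 were above 0 (68.3%, against 57.0%), with a median of 0.37 against 0.10. Without mouse JV621 the count was again 28 (against 50.5%) and the median 0.14, and without JV6314 it was 24 (58.5%, against 50.1%) with a median of 0.14. Library sizes alone in place of TMM gave 24 genes above 0 (58.5%, against 43.0% of all genes) and a median of 0.085, against -0.09.

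The precision of these comparisons was low. The median standard error over the 41 genes was 0.63 on the log2 scale and the median half-width of the 95% interval 1.42. The interval lay within 1 log2 unit of 0 on both sides for 3 genes: Ift27, a small GTPase of IFT-B, at 0.02 (-0.81 to 0.86), Ift52, a core subunit of IFT-B, at -0.17 (-0.97 to 0.63), and Wdr35, a subunit of IFT-A, at 0.14 (-0.65 to 0.94). The half-width was under 1 log2 unit, a 2-fold change, for 10 of the 41 genes, Kif3a having the narrowest interval (-0.28 to 1.05), and 1 log2 unit or more for the other 31. With TMM scaling, the 4 LLRC and 4 non-LRC libraries separated without overlap in 0 of the 41 genes, against 2.15% of all genes higher and 1.91% lower in LLRCs. With library sizes alone they separated in 1 gene, Arl6, higher in LLRCs (2.44%, against 1.66% of all genes), and in 0 lower (against 1.94%).

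**Figure D2:**
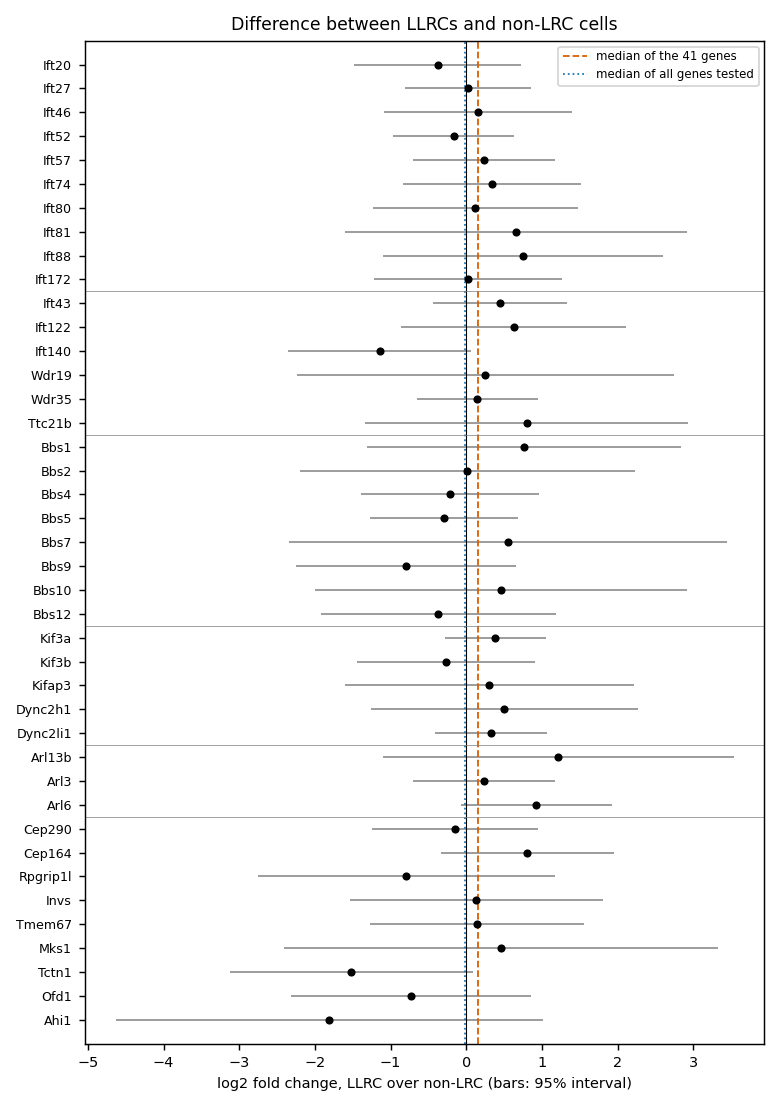
Fitted log2 fold change (LLRC over non-LRC) of the 41 genes tested, with the 95% interval as a bar and roles separated by grey lines. The dashed line is the median of the 41 genes at 0.15 and the dotted line that of all genes tested at -0.01; the interval of each gene includes 0, the widest being those of Ahi1, Bbs7 and Mks1.

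Within single mice the balance was uneven. On the scale of log2(CPM + 0.5), the median difference of the 41 genes between the LLRC and the non-LRC library of a mouse was -0.07 in JV602, 0.40 in JV621, 0.38 in JV624 and 0.25 in JV6314, with 0.01, 0.31, -0.03 and 0.09 for all genes tested. The LLRC library was the higher one for 19 of 41 genes in JV602, 27 in JV621, 30 in JV624 and 25 in JV6314. As shares these were 46.3%, 65.9%, 73.2% and 61.0%, against 50.9%, 59.4%, 48.7% and 53.4% of all genes, so that JV602 was on the other side of the background from the remaining mice. A gene was higher in the LLRC library in all 4 mice for 4 of 41 genes (9.76%, against 7.74% of all genes) and lower in all 4 for 1 gene (2.44%, against 5.53%). Both shares are near those of all genes. These counts depended on the scaling. With library sizes alone 2 genes, Ift88 and Arl6, were higher in all 4 mice (4.88%, against 6.26%) and 2, Tctn1 and Ift140, lower (4.88%, against 5.08%). With the size factors of DESeq2 3 were higher, Ift88, Ift43 and Cep164 (7.32%, against 7.23%), and Tctn1 was again the 1 lower gene (2.44%, against 6.15%). Ift88 and Tctn1 were thus the genes with 1 direction in all 4 mice under each of the 3 scalings, and the directions in single mice that follow are those with TMM.

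IFT-B is the larger of the train complexes and links cargo to kinesin for outward transport. Of its 10 genes 8 had a fold change above 0 and 2 below, with a median of 0.14, and none passed the test. Without JV621 6 of 10 were above 0, and without JV6314 5 of 10. Ift74 (chromosome 4, 94614491 to 94693229 of GRCm38), a core subunit that binds tubulin together with Ift81, had the highest level of the class per length. It was at 79.9, 110, 146 and 150 CPM in LLRCs, in the mouse order JV602, JV621, JV624 and JV6314 used from here on, and at 144, 146, 70.7 and 23.3 CPM in non-LRC cells. The groups overlapped, with non-LRC cells higher in JV602 and JV621 and LLRCs higher in JV624 and JV6314. The fold change of 0.34 (standard error 0.52; p = 0.532 in the edgeR test and 0.400 in an exact two-sided permutation test of 4 against 4 libraries) was -0.10 without JV6314 and between 0.020 and 0.62 with 1 library left out. Ift88 (chromosome 14, 57424062 to 57517936), the subunit disrupted in the classic mouse model of short cilia and polycystic kidneys, was higher in the LLRC library of each mouse. Its levels were 29.8, 9.46, 22.5 and 15.4 CPM in LLRCs and 28.2, 3.55, 12.5 and 1.38 CPM in non-LRC cells. The groups overlapped, and the log2 fold change was 0.75 (standard error 0.82; p = 0.384 in the edgeR test and 0.257 in the exact permutation test). It was 1.71 without the non-LRC library of JV602, 0.47 without the LLRC library of JV602, 0.46 without the non-LRC library of JV621 and 0.39 without that of JV6314. Ift80, another subunit of the complex, was chosen for description after its values were seen: it was at 39.6, 24.6, 67.8 and 52.3 CPM in LLRCs and at 12.1, 96.1, 30.8 and 30.8 CPM in non-LRC cells. LLRCs were higher in 3 mice and lower in JV621, and the log2 fold change of 0.12 became 1.12 (standard error 0.44, unadjusted p = 0.0378, adjusted p = 0.834 in the edgeR fit) without that mouse. The remaining genes of the class, Ift20, Ift27, Ift46, Ift52, Ift57, Ift81 and Ift172, had fold changes between -0.38 and 0.66.

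IFT-A turns the trains around at the tip and brings membrane receptors into the cilium. Of its 6 genes 5 had a fold change above 0 and 1 below, with a median of 0.35, and none passed the test. Without JV6314 3 of 6 were above 0 and the median was 0.02. Ift43 (chromosome 12, 86082541 to 86162459), a small peripheral subunit and the highest of the class per length, was higher in the LLRC library of every mouse, though not with library sizes alone. It was at 24.5, 24.2, 26.8 and 39.2 CPM in LLRCs and at 16.3, 12.7, 22.1 and 33.1 CPM in non-LRC cells. The groups overlapped, with the JV6314 libraries the highest of both, and the log2 fold change was 0.45 (standard error 0.39; p = 0.283 in the edgeR test and 0.200 in the exact permutation test). It was 0.27 without the LLRC and 0.76 without the non-LRC library of JV6314, and 0.28 without the non-LRC library of JV621. Ift140, the subunit with the smallest p of the 41 genes and named for it after the values were seen, had the opposite sign. It was at 2.91, 5.20, 4.85 and 4.00 CPM in LLRCs and at 8.27, 16.1, 3.95 and 9.27 CPM in non-LRC cells. LLRCs were lower in 3 mice and higher in JV624. The fold change was -1.14 (standard error 0.54; p = 0.0609 and adjusted p = 0.993 in the edgeR test, p = 0.114 in the exact permutation test). It was -0.86 (unadjusted p = 0.175) without JV621 and -0.67 with limma-voom, the value nearest to 0 of the 20 alternatives. The other 4 genes, Ift122, Wdr19, Wdr35 and Ttc21b, had fold changes between 0.14 and 0.80.

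The BBSome is a coat that carries membrane proteins out of the cilium, and Bbs10 and Bbs12 are chaperonin-like proteins needed for its assembly. Its 8 genes were split, with 4 fold changes above 0 and 4 below and a median of -0.10, and none passed the test. Without JV621 6 of 8 were above 0. Bbs5 (chromosome 2, 69647171 to 69667571), a subunit that binds membrane lipids and the highest of the class per length, was at 26.3, 22.0, 22.6 and 19.3 CPM in LLRCs and at 31.3, 47.0, 19.7 and 12.6 CPM in non-LRC cells. The LLRC libraries lay within the range of the non-LRC libraries, and the fold change of -0.29 (standard error 0.43; p = 0.513 in the edgeR test and 0.714 in the exact permutation test) was 0.10 without JV621 and 0.094 without its non-LRC library alone. Bbs1, Bbs2, Bbs4, Bbs7, Bbs9, Bbs10 and Bbs12 had fold changes between -0.80 and 0.76.

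The motors comprise the kinesin-2 subunits Kif3a, Kif3b and Kifap3 and the dynein-2 subunits Dync2h1 and Dync2li1. Of the 5 genes 4 had a fold change above 0 and 1, Kif3b, below, with a median of 0.33, and none passed the test. All 5 were higher in the LLRC library in JV621 and in JV624, 3 in JV6314 and 1 in JV602. Kif3a (chromosome 11, 53567379 to 53601967), the kinesin subunit whose loss from epithelia abolishes cilia, was the 1 gene of the class that was higher in LLRCs in every mouse, though not with library sizes alone or with the size factors of DESeq2. It was at 54.0, 56.4, 54.6 and 51.0 CPM in LLRCs and at 40.6, 52.0, 47.0 and 25.7 CPM in non-LRC cells. Its LLRC libraries were the most alike of the 41 genes, with an SD of 0.06 on the log2 scale against 0.44 in non-LRC cells, and only the JV621 non-LRC library reached their range. The log2 fold change was 0.39 (standard error 0.30; p = 0.225 in the edgeR test and 0.0571 in the exact permutation test), and 0.22 without the non-LRC library of JV6314. The smallest p that the exact test allows is 0.0286, and 0 of the 41 genes reached a p below 0.05 in it with TMM scaling, against 4.06% of all genes. Dync2li1 (chromosome 17, 84626496 to 84655588) was at 74.0, 86.0, 95.6 and 104 CPM in LLRCs and at 115, 68.7, 49.4 and 52.7 CPM in non-LRC cells. LLRCs were higher in 3 mice and lower in JV602, and the fold change was 0.33 (standard error 0.33; p = 0.342 in the edgeR test and 0.229 in the exact permutation test). Leaving out the JV602, JV624 or JV6314 non-LRC library gave 0.65, 0.18 and 0.21. Kif3b, Kifap3 and Dync2h1 had fold changes between -0.27 and 0.50.

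The ARF-like GTPases Arl13b, Arl3 and Arl6 act on the ciliary membrane. Arl13b activates Arl3, which releases lipid-modified cargo, and Arl6 recruits the BBSome. All 3 had a fold change above 0, with a median of 0.93, and none passed the test. Without JV621 the median was 0.62 and without JV6314 0.53. Arl6 (chromosome 16, 59612949 to 59639391), the highest of the class per length, was at 54.5, 96.3, 75.3 and 99.4 CPM in LLRCs and at 54.7, 58.3, 44.0 and 14.2 CPM in non-LRC cells. Except in JV602, where both libraries were nearly equal, the LLRC libraries were above every non-LRC library. With library sizes alone the JV602 libraries were at 63.2 CPM (LLRC) and 54.2 CPM (non-LRC), every LLRC library was above every non-LRC library, and the exact permutation p was 0.0286, a p that is not adjusted for the number of genes. The log2 fold change was 0.93 (standard error 0.44, p = 0.0654, adjusted p = 0.9999 in the edgeR test; exact two-sided permutation p = 0.0857). It was 1.02 without JV621 and 0.53 without JV6314, whose non-LRC library was the lowest. Arl13b was at 11.7, 32.8, 30.1 and 21.3 CPM in LLRCs and at 12.5, 0, 23.0 and 5.52 CPM in non-LRC cells, and its fold change of 1.22 (standard error 1.03) was 0.62 without JV621. Arl3 had a fold change of 0.23 (standard error 0.42).

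**Figure D3:**
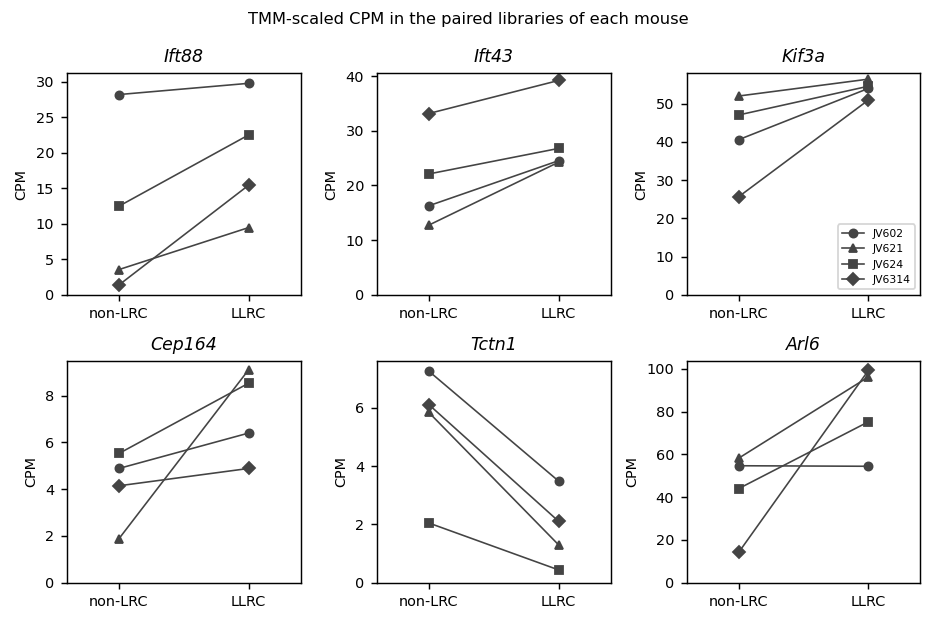
TMM-scaled CPM of Ift88, Ift43, Kif3a, Cep164, Tctn1 and Arl6 in the non-LRC and the LLRC library of each mouse, joined by a line per mouse with a marker shape for each mouse. With this scaling lines go up from non-LRC to LLRC in 4 of 4 mice for Ift88, Ift43, Kif3a and Cep164 and down in 4 of 4 for Tctn1, while for Arl6 the JV602 line is level; each vertical axis starts at 0 and has its own scale.

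The transition zone and basal body genes form the gate and anchor of the cilium. Of the 9 tested, 4 had a fold change above 0 and 5 below, with a median of -0.15, and none passed the test. Without JV621 the split was 5 and 4. Ofd1 (chromosome X, 166390033 to 166440704), a centriole protein needed to form cilia and the highest of the class per length, was at 16.3, 12.8, 20.3 and 26.5 CPM in LLRCs and at 16.0, 80.8, 23.5 and 5.92 CPM in non-LRC cells. The JV621 non-LRC library set the direction: the fold change of -0.73 (standard error 0.70) was 0.33 without that library and 0.48 without the mouse. Cep164 (chromosome 9, 45766946 to 45828691), which docks the basal body at the membrane, was higher in LLRCs in each mouse, though not with library sizes alone. Its levels were 6.40, 9.11, 8.53 and 4.89 CPM in LLRCs and 4.88, 1.88, 5.52 and 4.14 CPM in non-LRC cells. The groups overlapped at the JV6314 LLRC library, and the log2 fold change, 0.45 without JV621, was 0.81 (standard error 0.51, p = 0.146 in the edgeR test; exact two-sided permutation p = 0.0571). Tctn1 (chromosome 5, 122237848 to 122264460), a member of the transition zone complex that holds the membrane barrier, was the 1 gene of the 41 that was lower in LLRCs in every mouse with TMM scaling. It was at 3.49, 1.30, 0.441 and 2.11 CPM in LLRCs and at 7.26, 5.85, 2.05 and 6.12 CPM in non-LRC cells. The JV624 libraries were the lowest of both groups, so that the groups overlapped, and the log2 fold change was -1.52 (standard error 0.71, p = 0.0618, adjusted p = 0.993 in the edgeR test; exact two-sided permutation p = 0.0857). With the mouse as a replicate block it was -1.70 (standard error 0.61, unadjusted p = 0.0322, adjusted p of 1.00), where 4.18% of all genes had an unadjusted p below 0.05 and Tctn1 was the 1 gene of the 41 (2.44%). Reads were counted without strand, and 19.0% of the exon length of Tctn1 overlaps Hvcn1 on the opposite strand, whose reads cannot be told apart from its own there. Ahi1, a transition zone protein, had the lowest fold change, -1.81 (standard error 1.25). With levels of 2.62, 3.55, 2.50 and 1.78 CPM in LLRCs and 4.26, 30.5, 2.21 and 0 CPM in non-LRC cells, it was 0.08 without JV621. Cep290, Rpgrip1l, Invs, Tmem67 and Mks1 had fold changes between -0.79 and 0.46, and Nphp4 was at 0, 1.06, 0 and 0.777 CPM in LLRCs and at 1.38, 0, 3.47 and 0 CPM in non-LRC cells.

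Like most genes tested, the cilium genes varied more among the non-LRC libraries than among the LLRC libraries. On the log2(CPM + 0.5) scale, the median SD over 4 libraries was 0.393 in LLRCs and 1.23 in non-LRC cells for the 41 genes, and 0.439 and 0.904 for all genes tested. The SD was the larger one in non-LRC cells for 37 of 41 genes (90.2%), against 83.6% of all genes, and without JV621 for 33 of 41 (80.5%), against 68.3%. The other cilium genes described below had nearly the same shares, 51 of 57 (89.5%) and 77.2% without JV621. The larger spread in the non-LRC libraries was thus seen in most genes tested, with higher shares in both cilium lists. The 4 genes outside the count of 37 were Ift172, Wdr35, Cep290 and Tctn1, and without JV621 Ift27, Ift52, Bbs9 and Cep164 were outside it too. The widest gap was that of Ift81, the partner of Ift74 in binding tubulin, with an SD of 0.20 in LLRCs and 3.08 in non-LRC cells. Its levels were 41.9, 43.9, 34.4 and 48.0 CPM in LLRCs and 44.7, 0, 27.3 and 34.3 CPM in non-LRC cells, so that apart from the 0 in JV621 both groups were alike. In each mouse the non-LRC library also had fewer counts than the LLRC library and higher summed endothelial and stellate or fibroblast markers, and the part of these in the spread was not tested.

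**Figure D4:**
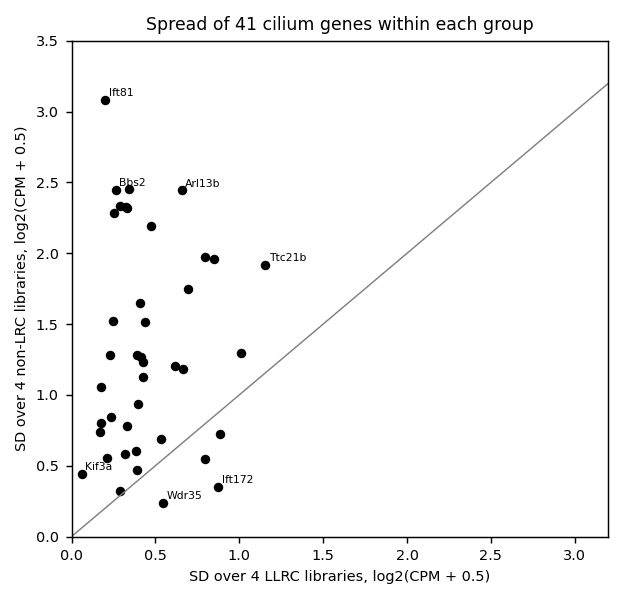
SD over the 4 LLRC libraries (horizontal) and over the 4 non-LRC libraries (vertical) of each of the 41 genes, on the scale of log2(CPM + 0.5), with a line of equality and 7 genes labelled. Points above the line, 37 of 41, vary more among non-LRC libraries; Ift81 lies highest at 3.08, and Wdr35 and Ift172 are among the 4 below the line.

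Some of these genes had no reads at all in single libraries. In the non-LRC library of JV621, 8 of the 41 genes had 0 counts: Ift81, Wdr19, Bbs1, Bbs2, Bbs7, Bbs10, Arl13b and Mks1. This was 19.5%, against 15.6% of all genes tested, and each of the 8 had at least 10 counts in every LLRC library, a combination found in 10.1% of all genes. Kifap3 and Dync2h1 were near 0 there, at 1.67 and 0.835 CPM. Against a floor of 3 counts in that library, the LLRC library of the same mouse was at least 70.0-fold higher for Ift81, with 371 counts, and at least 52.3-fold higher for Arl13b, with 277 counts. The bound was at least 16.2-fold for Bbs2, 14.2-fold for Wdr19, 9.82-fold for Bbs10, 9.25-fold for Bbs7, 4.53-fold for Mks1 and 3.02-fold for Bbs1. These bounds allow for counting error of the 0 alone. They leave out that of the LLRC count and other differences between the 2 libraries, and are no comparison of the groups. In the non-LRC library of JV6314 Bbs7, Mks1 and Ahi1 had 0 counts (7.32%, against 7.75% of all genes). None of the 41 genes was at 0 in an LLRC library, where 0.853%, 0.345%, 1.21% and 1.2% of all genes were, or in the non-LRC libraries of JV602 and JV624, where 1.57% and 1.41% were. In the same JV621 non-LRC library other cilium genes were high, with Ift80 at 96.1, Bbs4 at 102, Bbs9 at 70.0, Ofd1 at 80.8 and Ahi1 at 30.5 CPM, each above the other 7 libraries. The summed level of the 41 genes and Nphp4 there was 1094 CPM, between the lowest (826 CPM) and the highest (1177 CPM) of the other non-LRC libraries.

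**Figure D5:**
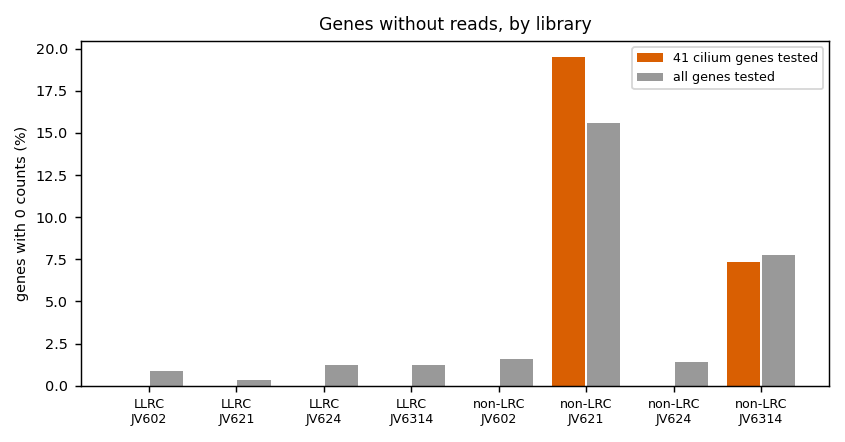
Share of genes with 0 counts in each library, in percent, for the 41 cilium genes (orange) and all 13605 genes tested (grey). Orange bars are present only for the non-LRC libraries of JV621 (19.5%) and JV6314 (7.32%), where the grey bars are also the tallest (15.6% and 7.75%).

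A list of 60 further cilium genes held transport and gate genes, 10 genes of the basal body and ciliogenesis, 2 of the inversin compartment and 4 RFX genes. Of these, 57 were tested and Kif17, Anks6 and Dzip1 had too few reads. None of the 57 had an unadjusted p below 0.05. Fold changes were above 0 for 40 and below 0 for 17, with a median of 0.19, so that 70.2% were above 0 as against 48.9% of all genes, and 58.6% without JV621 as against 50.5%. Without the RFX genes these shares were 71.7% (38 of 53) and 59.3%. In 4 of them (7.02%, against 2.15% of all genes) each LLRC library was above each non-LRC library: Wdr34, Tctex1d2, Tctn3 and Ccp110. With library sizes alone there were 2 (3.51%, against 1.66%), Ccp110 and Lztfl1. Such a gene has the smallest exact p the test allows, and it is not adjusted for the number of genes. Wdr34, an intermediate chain of dynein-2, was at 15.1, 12.8, 9.85 and 9.99 CPM in LLRCs and at 7.14, 5.22, 5.52 and 8.09 CPM in non-LRC cells (log2 fold change 0.88, standard error 0.40, p = 0.0555 and adjusted p = 0.968 in the edgeR test, p = 0.0286 in the exact permutation test). Tctex1d2, a light chain of the same motor, had a fold change of 0.65 (standard error 0.34). Lztfl1, which regulates entry of the BBSome into the cilium, was at 18.7, 28.0, 29.9 and 22.4 CPM in LLRCs and at 13.0, 20.5, 15.2 and 8.29 CPM in non-LRC cells, higher in each mouse with a fold change of 0.80 (standard error 0.38). Ccp110, which caps the mother centriole and holds back the growth of a cilium, was at 16.8, 8.04, 14.9 and 17.3 CPM in LLRCs and at 5.39, 0, 4.58 and 0 CPM in non-LRC cells. Its fold change of 2.48 (standard error 1.22; p = 0.0710 in the edgeR test and 0.0286 in the exact permutation test) depends in part on the non-LRC libraries at 0, and with the mouse as a replicate block its unadjusted p was below 0.05.

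The 4 RFX genes of this list had fold changes of both signs, and binding of their proteins to the matches shown above was not tested. Rfx3, the member known for its need in ciliated epithelia, was the highest of the 4, at 22.3, 34.1, 57.4 and 37.7 CPM in LLRCs and at 30.7, 0, 8.52 and 16.6 CPM in non-LRC cells. LLRCs were higher in 3 mice and lower in JV602 (log2 fold change 1.43, standard error 1.02; p = 0.194 in the edgeR test and 0.0571 in the exact permutation test), and the fold change was 2.17 without the non-LRC library of JV602. Rfx1, Rfx2 and Rfx5 had fold changes of 0.66, -1.22 and -0.71 (standard errors 1.05, 1.30 and 0.70) at no more than 13.4 CPM in any library, and without JV621 Rfx1 was at -0.18 and Rfx2 at 0.63. Rfx5 was at -0.42 without the non-LRC library of JV621 and at -0.40 without the LLRC library of JV6314.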

How the data were processed

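RNA of sorted LLRCs and non-LRC cells from 4 mice was sequenced in 8 libraries. The authors extracted RNA with a kit for small samples, had the reads mapped at a service facility (the aligner is not given in the sources used here) and counted reads with HTSeq (union mode, exons, regardless of strand) against the Ensembl annotation of GRCm38.p4. The deposited table holds these raw counts, which are not normalized. The authors' edgeR (3.2.4) comparison, a table of fold changes, abundances, p-values and adjusted p-values, was not used. Symbols and coordinates came from GENCODE M21 for GRCm38, and symbols it lacked from a separate gene name list. They covered 46091 of 46603 rows; 512 had none.

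The 4 LLRC libraries were tested against the 4 non-LRC libraries with edgeR 4.0.16 (R 4.3.3; quasi-likelihood test, TMM factors, filterByExpr with a minimum count of 10, Benjamini-Hochberg adjustment over 13605 genes, threshold 0.05, group as the only term). Intervals are at 95%. Within-mouse differences and SDs used log2(CPM + 0.5), as did the exact permutation tests. DESeq2 1.42.0 and limma 3.58.1 served for alternatives, with other scalings, filters, the mouse as a block and libraries left out. The share of genes with a larger SD and the counts of directions without JV621 or JV6314, and the other scalings of overlaps and of directions by mouse, were added after seeing the data.

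The members and lists were chosen with earlier results of these data known. Values in every library are given for members with an unadjusted p below 0.05, without overlap between groups or with 1 direction in all 4 mice, and for the member with the highest level per length in each role; of the other cilium genes, for the 3 with the smallest p and the RFX genes. Others named with values were chosen after their values were seen. According to the labels, both libraries of a mouse come from 1 animal and are pairs, with the reservation given above for JV621. Across genes, their deviations from the group means correlated at 0.094, 0.085, 0.0042 and 0.179 in JV602, JV621, JV624 and JV6314.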

Additional observations from a re-analysis of the deposited data

Results flagged for a closer look

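In 6 of the 84 groups of 4 libraries (42 genes in LLRCs and in non-LRC cells) a single library lay far outside the range of the rest. About 1 group in 20 would do so by chance. In LLRCs these were the JV6314 libraries of Ift43, at 39.2 CPM, and of Wdr19, at 12.9 CPM, each the highest. In non-LRC cells they were the JV602 libraries of Ift172, at 9.77 CPM, and of Tmem67, the transmembrane receptor of the transition zone, at 70.5 CPM, each the highest. The JV621 non-LRC library was the lowest for Ift27, at 8.56 CPM, and the highest for Ahi1, at 30.5 CPM.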

How the results depend on the processing

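Under all 20 alternatives 0 of the 41 cilium genes passed the adjusted threshold. Over all genes the count of 0 became 221 with DESeq2, 159 with edgeR's exact test, 171 with its likelihood ratio test and 11 without an expression filter, and 0 to 6 with 1 library left out, the 6 without the JV602 non-LRC library; the cause was not tested. The number of the 41 with an unadjusted p below 0.05, 0 in the report, was 2 with DESeq2 (Ift140 and Tctn1; 7.42% of all genes), 1 with the exact and 1 with the likelihood ratio test (Tctn1; 5.97% and 6.42%), 2 with limma-voom (Arl6 and Tctn1; 6.51%), 1 with the mouse as a replicate block (Tctn1; 4.18%), 1 without JV621 (Ift80; 5.86%) and 0 to 2 with 1 library left out (3.52% to 8.9%). With CPM scaled by library size alone, groups did not overlap for 1 gene, Arl6, in place of 0 (1.66% of all genes higher, 1.94% lower). Its exact permutation p was below 0.05, as for 3.6% of all genes. In all 4 mice 2 genes in place of 4 were higher (6.26% of all genes) and 2 in place of 1 lower (5.08%). With the size factors of DESeq2 the counts without overlap, higher in all 4 mice and lower in all 4 were 0, 3 and 1. Of all genes, 2.0% (higher) and 2.06% (lower) were then without overlap, and 7.23% and 6.15% had 1 direction. The SD was larger in non-LRC cells for 36 genes in place of 37 with either scaling. Over all genes this held for 83.2% with library sizes alone and 83.7% with the DESeq2 factors. The median fold change of the 41 genes, 0.15, was 0.37 with limma-voom and 0.42 with the replicate block, which moved the median of all genes from -0.01 to 0.10 and 0.14, 0.085 with library sizes alone (all genes -0.09) and 0.095 to 0.31 with 1 library left out. That of the other cilium genes, 0.19, was 0.48 with the block, 0.34 with limma-voom, 0.076 with library sizes alone and 0.16 to 0.52 with 1 library left out. Ofd1 changed sign to 0.043 with limma-voom, 0.33 without the JV621 non-LRC library (-1.07 to 0.33 with 1 library left out) and 0.48 without that mouse, and Rfx2 to 0.27, 0.60 (-1.65 to 0.60) and 0.63. Bbs5 changed sign to 0.094 (-0.53 to 0.094) and 0.10 without the same library and mouse, Rfx1 to -0.18 without JV621 and Ift74 to -0.098 without JV6314. The other 12 genes named by the rule kept their sign under the 20 alternatives. Besides Tctn1, the replicate block gave an unadjusted p below 0.05 for Ccp110 among the other cilium genes, and it changed no call at the adjusted threshold. Depth limits genes under 0.626 CPM, the largest 3-count floor.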
